A study of Mus musculus with 8 samples.

Results

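A1bg encodes alpha-1-B glycoprotein, a secreted plasma protein of the immunoglobulin superfamily that is made in the liver. The gene was chosen by its large rise in livers of both sexes labelled deficient in Bcl-6, so its difference between genotypes is described here without a test. It was 1 of 22911 genes with a symbol on the array and 1 of 26553 genes and unnamed transcripts that passed a filter on detection. A single probe, A_52_P73552, present as 1 spot per array, measured it.

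Total RNA from whole liver was hybridised to 1-colour arrays, 1 array per sample, in 4 groups of 2 arrays. The groups were male wild type, female wild type, male knockout and female knockout, from mice 10 to 11 weeks old. The knockout is labelled as a deficiency of Bcl-6 specific to the liver. The promoter that drives the recombinase, the strain and the treatment of the controls are not given in the sources used here. Nothing beyond the replicate names says that the 2 arrays of a group came from separate animals, so the p-values reflect the spread of these samples alone, which may be technical.

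In the mouse, A1bg is known as a gene of the female liver, where its transcript is far more abundant than in the male liver. Sex differences of this kind follow the pattern of pituitary growth hormone release, which is pulsed in males and more continuous in females and acts through the growth hormone receptor, the kinase JAK2 and the transcription factor STAT5. BCL6 is a zinc-finger repressor that can bind DNA sequences like those bound by STAT5, and CUX2, a homeodomain repressor, is enriched in female liver.

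The promoter of A1bg is shown because patterns bound by factors of this pathway were searched in it. It lies at chr15:60921221-60921520 on the minus strand (RefSeq, GRCm38.p6), from 250 bases before the gene's start to 50 bases past it, and is written in the direction of transcription. The arrays were annotated on mm9, a different build, and none of their coordinates was used. Capitals mark matches to the motifs searched, and the last 50 bases lie past the start.
A1bg promoter: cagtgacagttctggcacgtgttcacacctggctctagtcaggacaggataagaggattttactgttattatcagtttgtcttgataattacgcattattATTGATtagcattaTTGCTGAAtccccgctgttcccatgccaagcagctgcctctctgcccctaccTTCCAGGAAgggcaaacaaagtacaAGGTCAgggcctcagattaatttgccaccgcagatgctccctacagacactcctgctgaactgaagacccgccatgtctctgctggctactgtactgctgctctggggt
A match to TTCNNNGAA, the pattern bound by STAT5 and also recognised by BCL6, read TTCCAGGAA and lay 84 to 76 bases before the start. Of 32851 promoter windows of the same length, 8.30% held this pattern on either strand. ATTGAT, a pattern of HNF6 and CUX2, lay 150 to 145 bases before the start and was held by 7.54% of promoters. TTGCNNAA, a C/EBP pattern, matched TTGCTGAA at 136 to 129 bases before the start, against 10.8% of promoters. AGGTCA, a core element of nuclear receptor sites, lay at 59 to 54 bases before the start, against 16.3% of promoters. The matches did not overlap. TGTTTAC, a FOXA pattern held by 3.65% of promoters, and GTTAAT, part of an HNF1 site held by 7.10%, were not found in this window. Both strands were searched, and a match describes letters only.

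The array's Bcl6 probe was not lower in knockout. It read 3.48 and 2.41 in male wild type, 4.01 and 3.53 in male knockout, 2.48 and 0.39 in female wild type, and 1.15 and 3.93 in female knockout, as log2 relative to each array's 75th percentile. The differences were 0.82 in males and 1.11 in females (limma adjusted p = 0.670 and 0.557). The position of this probe relative to the deletion is not known here, so it checks no genotype label, and the directions below rest on the labels. Arrays had 33603 to 36377 spots well above background, as judged by the scanner's software. All 8 lay on 1 slide, females in 1 row and males in the other, and effects of row and of sex cannot be told apart.

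A1bg was not well above background on the male wild-type arrays, low and uneven in female wild type, and bright in all 4 knockout arrays. The processed signal is the value that the scanner's software gave each spot after its background subtraction and further processing. It read 1.87 ± 1.88 and 2.06 ± 2.06 in replicates 1 and 2 of male wild type. The error is the scanner software's own estimate for the spot. Both signals were below the lowest signal called well above background on those arrays, 7.08 and 7.81. The raw median brightness of these spots was 29.0 and 28.0, over local backgrounds of 21.0 and 22.5. The software's background-subtracted signal was negative for both, -0.23 and -1.88. The processed values 1.87 and 2.06 therefore do not measure a remaining brightness. The male wild-type probe was therefore well above background on 0 of 2 arrays, and its level has only an upper bound.

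In female wild type the signal was 26.0 ± 2.94 on replicate 1 and 188 ± 18.9 on replicate 2. Both arrays read well above background, but the second was 7.21-fold brighter than the first, far more than the scanner error of either spot. The knockout arrays gave 6994 ± 699 and 5907 ± 591 in males and 7861 ± 786 and 7235 ± 724 in females. None of the 8 spots was saturated or marked as an outlier. Every knockout array was brighter than every wild-type array, and the male and female knockout arrays lay within 1.33-fold of each other.

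**Figure D1:**
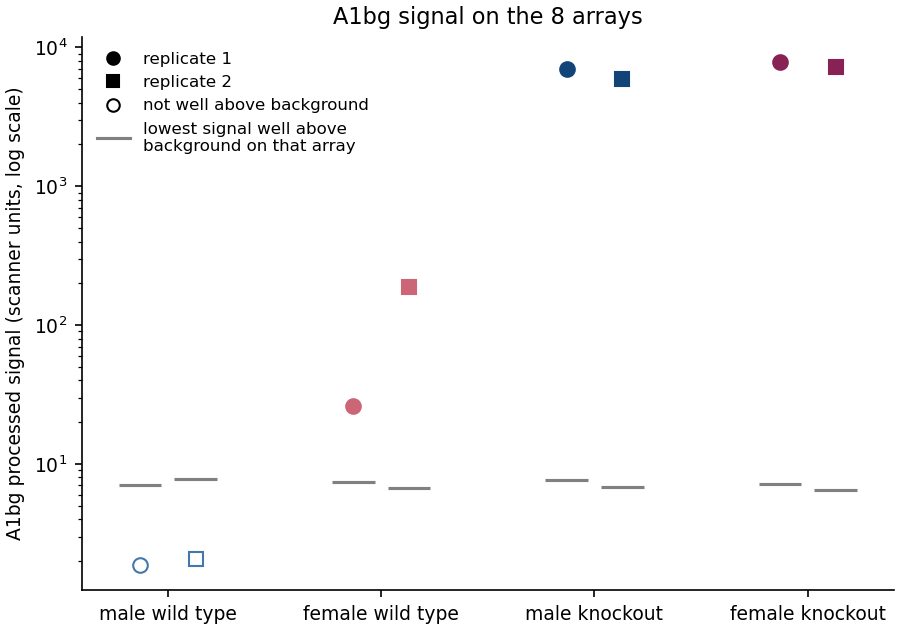
Processed signal of the A1bg probe on each of the 8 arrays, on a log axis, by group; circles are replicate 1, squares replicate 2, and open symbols are spots not well above background. The grey bars give the lowest signal called well above background on each array; the male wild-type spots, 1.87 and 2.06, lie under them, and the 4 knockout arrays lie between 5907 and 7861.

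After scaling each array to its 75th percentile, A1bg stood at -6.87 and -6.45 (log2) in male wild type, a mean of -6.66 ± 0.29 (SD, n = 2). Those male values come from spots with a negative background-subtracted signal, so their SD does not measure a spread of the transcript. Female wild type stood at -3.00 and -0.22, a mean of -1.61 ± 1.97 (SD, n = 2). Male knockout stood at 5.21 and 4.98, a mean of 5.10 ± 0.16 (SD, n = 2), and female knockout at 5.30 and 5.15, a mean of 5.23 ± 0.11 (SD, n = 2). The order of the group levels was male wild type, female wild type, male knockout, female knockout, and the last 2 overlapped.

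In males A1bg was 11.76 higher in knockout on the log2 scale (SE 0.82). Since its wild-type level is a bound, the fold is written as a minimum: at least 912-fold, after each dim value was raised to the detection limit of its array, the lowest signal called well above background. In females the difference was 6.84 (SE 0.82), or 114-fold. It was 8.23 without female wild-type replicate 2 and 5.45 without replicate 1. Among the 26553 tested genes and transcripts, A1bg had the 6th largest rise in males and the 10th largest in females. These ranks, and the gap given next, only describe the values that chose the gene. The male rank also rests on dim wild-type signals. With dim values raised the male rise was 9.83, and no rank was taken there. The lowest knockout array exceeded the highest wild-type array by 5.20 (log2), or 36.8-fold, and 21 of the tested genes, A1bg included, had a gap at least as wide.

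Limma, with Benjamini-Hochberg adjustment over all tested genes at a threshold of 0.05, called 6.02% of genes higher and 4.56% lower in male knockout, and 3.48% higher and 2.48% lower in female knockout. These shares are the background for the gene lists below. In whole liver, more cells of a type and more RNA per cell cannot be told apart. The 10 hepatocyte markers measured (such as Alb, Apoa1 and Hnf4a) were well above background on all 8 arrays, with median differences of 0.02 in males and 0.03 in females; Asgr1 rose and Ttr fell in both sexes. Of the 6 measured markers of B and plasma cells, 4 rose in male knockout and 2 in female knockout. Their summed level, in multiples of the array's 75th percentile, was 20.7 to 23.0 on the knockout arrays and 7.47 to 9.36 on the wild-type arrays. Most of that sum was Sdc1, a surface proteoglycan that hepatocytes also make, and Cd79a was well above background on 6 of 8 arrays. The part of these cells in the A1bg result was not tested. Of 7 endothelial markers, 3 rose in male knockout and 1 in female knockout, with summed levels of 74.8 to 81.8 in knockout and 51.0 to 68.9 in wild type. Of 7 stellate markers, Pdgfrb and Col1a1 rose in male knockout and Lrat fell in female knockout, with sums of 66.3 to 82.6 in knockout and 50.1 to 79.2 in wild type. The erythroid gene Alas2 differed by -1.47 in males and 1.59 in females, both called. Hba-a1, the other erythroid marker tested, differed by 0.63 in males and 0.19 in females, neither called. The acinar gene Cela1 fell by 1.46 on the log2 scale in male knockout. Amy2a5, the other acinar marker tested, differed by 0.88 in males and was not called. The part of these cells was not tested either.

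The comparison of the sexes did not enter the choice of A1bg and was tested. In wild type, the males minus females difference was -5.05 (log2, SE 0.82, 95% confidence interval -7.04 to -3.06), and both male arrays read below both female arrays. The adjusted p from limma was 0.0600 (unadjusted 0.000781), so A1bg did not pass the threshold. Females were at least 8.73-fold higher, again a minimum because of the male level; it was 22.9-fold without female wild-type replicate 1 and 3.33-fold without replicate 2. An exact permutation test of 2 arrays against 2 cannot go below p = 0.333. In this comparison 0.546% of tested genes were called higher in males and 0.365% lower.

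The spread behind this p came mostly from the 2 female wild-type arrays. The SE of A1bg was 0.82, against a median of 0.16 over all tested genes, and 0.911% of genes had a larger one. Without female wild-type replicate 1 the difference was -6.44 (limma adjusted p = 0.00154), and without replicate 2 it was -3.66 (adjusted p = 0.00271). In both fits the female wild-type group was 1 array, assumed to vary like the other groups. With dim values raised to the lowest detected signal the difference was -3.13 (adjusted p = 0.127), and over all alternatives the adjusted p ranged from 0.00154 to 0.245.

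In knockout, males and females differed by -0.13 (log2, 95% confidence interval -2.12 to 1.86, limma adjusted p = 0.994). The interval is wide because the spread was shared with the female wild-type arrays. In a fit of the 4 knockout arrays alone it ran from -0.50 to 0.23 (limma adjusted p = 0.808). Only 0.0716% of tested genes were called between the sexes in knockout. The rise in males exceeded that in females by 4.92 (log2, SE 1.15). This is given without a test, since A1bg was chosen by those rises, and its size rests on the male wild-type level, which is a bound. It was 6.31 without female wild-type replicate 1 and 3.53 without replicate 2. With dim values raised it was 2.99, and with another background correction (normexp, which adds an offset to every spot) it was 0.87.

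**Figure D2:**
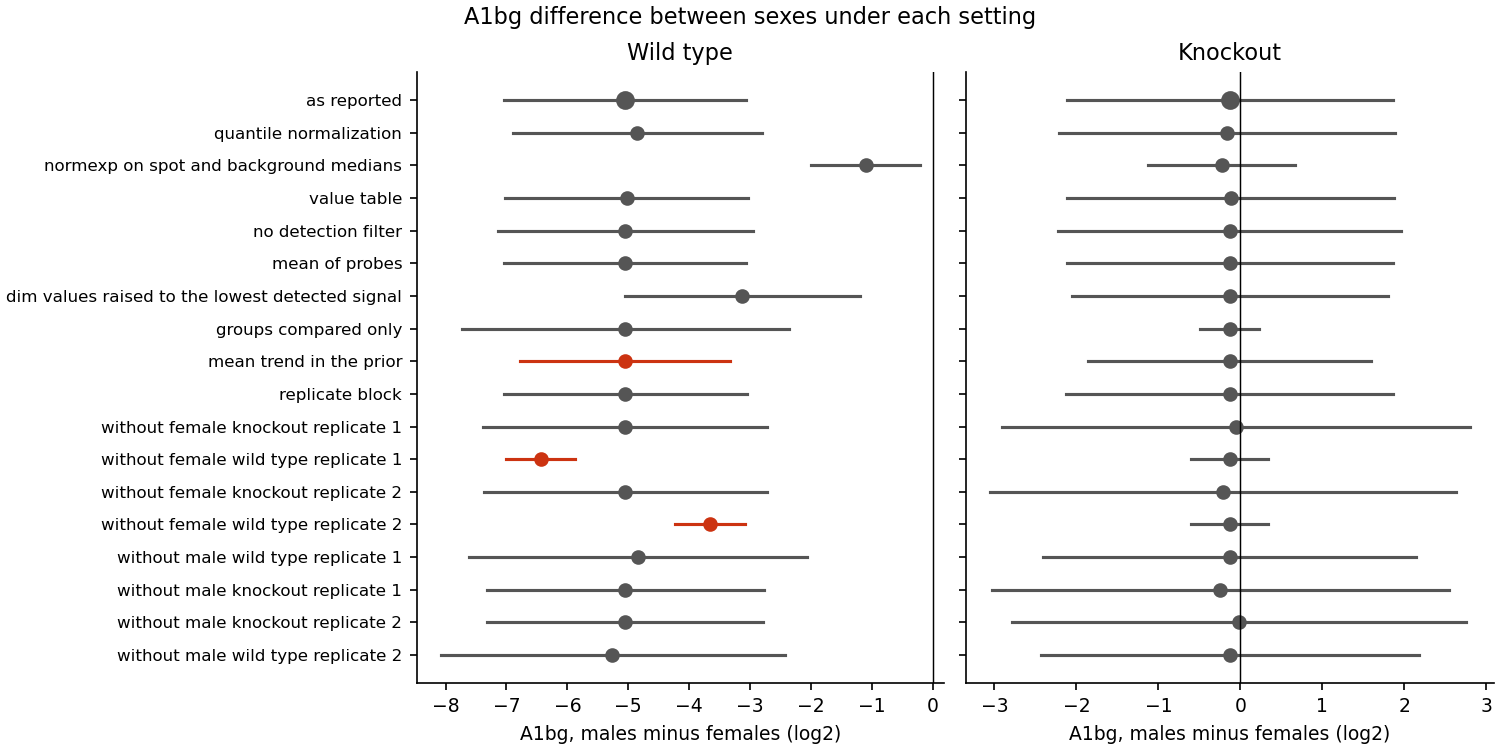
Difference of A1bg between males and females (log2; points) with 95% confidence intervals (lines) in wild type and in knockout, as reported and under each alternative; red marks a limma adjusted p under 0.05. The wild-type values lie between -6.44 and -1.10, all below 0, and are red in 3 settings; the knockout values lie between -0.25 and -0.02.

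The gap between the female wild-type arrays was itself unusual. A1bg was 2.78 (log2) higher on replicate 2, and of 25097 genes and transcripts well above background on both arrays, 52 had a gap that large in either direction (0.207%) and 21 in the same direction. The median absolute gap was 0.20. Female-biased liver genes, from a list compiled from general knowledge, more often differed the other way. Of 42 well above background on both arrays, 12 were higher on replicate 2, with a median difference of -0.52, against 46.2% and -0.03 over all genes and transcripts well above background on both. Sult1e1, an oestrogen sulfotransferase, was lower on replicate 2, with a difference of -5.56 (log2). The sulfotransferases Sult2a1, Sult2a6 and Sult2a2, which act on steroids and bile acids, had differences of -5.43, -4.61 and -3.38. Sult3a1 and Cyp3a44 had differences of 2.22 and 1.53, in the direction of A1bg. The array on which A1bg was high was thus not the array on which the Sult2a genes were high.

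**Figure D3:**
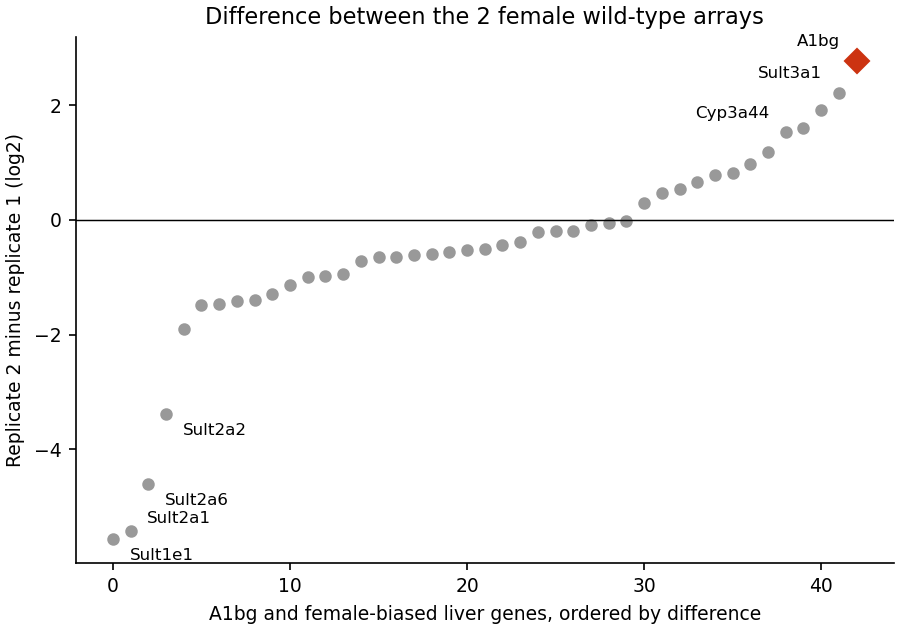
Difference between the 2 female wild-type arrays (replicate 2 minus replicate 1, log2) for A1bg (red diamond) and 42 female-biased liver genes (grey circles), in order of size. A1bg, at 2.78, had the largest positive difference plotted, and 4 sulfotransferases lay between -5.56 and -3.38.

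The list held 45 genes taken from general knowledge to be higher in female than in male mouse liver, of which 43 were tested. Not all of them were higher in females here. Cyp2c39 did not pass the filter on detection and Cyp3a41b was not matched. In wild type 18 of the 43 were lower in males and 1, Hsd3b6, was higher, against 0.365% and 0.546% of all tested genes. Among the 18 was Cux2, at least 36.3-fold higher in females (limma adjusted p = 0.000483). The count of 18 changed when single arrays were left out. As with A1bg, 11 of the 43 were well above background on no male wild-type array. The share of all tested genes with this trait was not counted, so the 11 are a description only. In male knockout 29 rose and 1 fell (Hsd3b6), with a median difference of 2.57, against -0.02 over all tested genes. In female knockout 6 rose and 1, Cyp2b13, fell, with a median of 0.20, against 0.00 over all. The change differed between the sexes for 8 of the 43 (interaction of sex and genotype), against 0.2% of all tested genes. The count that rose in females was unstable when single arrays were left out, moving both up and down.

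The 6 genes that rose in both sexes were Cyp3a44, Cyp2g1 and Cyp3a16 (cytochromes P450), Prlr (the prolactin receptor), Cux2 and Nipal1. Of these, Cyp3a44 and Cux2 were called lower in wild-type males here. Males minus females in wild type was 0.09 for Cyp2g1, -0.15 for Cyp3a16, -1.03 for Prlr and -1.55 for Nipal1, none called. Prlr rose by 3.37 in males (limma adjusted p = 0.000471) and by 2.43 in females (adjusted p = 0.00228). Cux2, not well above background in male wild type, rose at least 111-fold in males (limma adjusted p = 0.000183) and by 1.65 on the log2 scale in females (adjusted p = 0.0238).

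A1bg in male knockout went past the level of female wild type. The male knockout mean was 6.71 above the female wild-type mean (log2), or 104-fold, and all 4 arrays kept that order. It was 5.32 (39.9-fold) without female wild-type replicate 1 and 8.10 (274-fold) without replicate 2. Of the 43 female-biased genes, 0 had a larger difference of this kind. Sult3a2 was nearest at 5.99, followed by Cyp3a44 at 5.45, and for Sult3a2 at least 1 female wild-type array was not well above background. The list's median was 0.35, against -0.01 over all tested genes. Both male knockout arrays were above both female wild-type arrays for 16 of the 43 and below for 6, against 29.7% and 30.9% of all tested genes. Cyp2b13, at -4.54, stayed well below the female wild-type level. Because A1bg was chosen for its knockout level, its place in this order is a description.

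**Figure D4:**
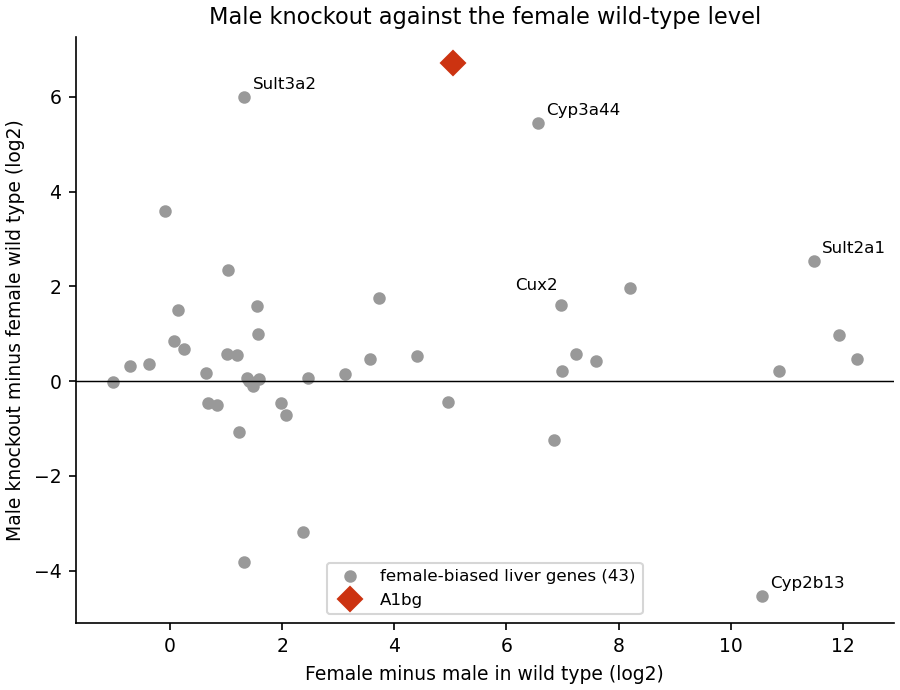
Male knockout minus female wild type (log2, vertical axis) against female minus male in wild type (log2, horizontal axis) for A1bg (red diamond) and 43 female-biased liver genes (grey circles). A1bg lies at 6.71 on the vertical axis, above all 43, whose median is 0.35.

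Similarity to A1bg was measured over the 8 arrays among 1235 named genes whose values spanned at least 2 log2 units. The arrays share 4 groups, and genes that differ between genotypes can correlate with A1bg for that reason alone, so these values only describe the pattern. The ranking also rests partly on dim signals: with dim values raised to the lowest detected signal, Fgl1 ranked 8, Cyp3a44 9, Abhd2 11, Esr1 16, Med12l 95 and Cga 98 by r. Cga and Med12l were not well above background in wild type of either sex. The highest Pearson r were those of Fgl1 (0.995), a hepatocyte-secreted fibrinogen-like protein, Abhd2 (0.993), a lipid hydrolase, Esr1 (0.989), oestrogen receptor alpha, Cyp3a44 (0.989), Cga (0.981), the shared subunit of the glycoprotein hormones, and Med12l (0.980), a Mediator subunit. Fgl1 stood at 5.50 and 5.37 in male wild type, 6.17 and 6.88 in female wild type, 7.79 and 7.58 in male knockout and 7.75 and 7.65 in female knockout. Its wild-type groups had the same order as those of A1bg, below both knockout groups, over a much smaller range, a 2.26 difference between male genotypes on the log2 scale.

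Cyp3a44 was the only gene among the 4 nearest by both measures, with a root mean square distance of 0.76 (log2) after centring each gene on its mean. It stood at -6.12 and -6.57 in male wild type, where it was not well above background, and at -0.54 and 0.99 in female wild type. The knockout arrays read 5.68 and 5.66 in males and 5.27 and 5.69 in females. Its measured differences between genotypes were 12.01 in males (at least 1353-fold) and 5.26 in females, beside 11.76 and 6.84 for A1bg. In wild type Cyp3a44 was at least 31.0-fold higher in females (limma adjusted p = 0.00474), where A1bg, with its wider gap between female arrays, missed the threshold. Cyp3a genes are near-identical in places, so this probe may also bind transcripts of its relatives. Also near by distance were Adra2c (1.82), an adrenergic receptor, and Slc22a2 (2.10), an organic cation transporter. Neither was well above background in wild type of either sex, whereas A1bg was in female wild type. These distances, like that of Cyp3a44, rest partly on dim signals and were not taken with dim values raised. Of the 7 similar genes with a promoter in the RefSeq table, Esr1 was the 1 that held TTCNNNGAA, against 8.30% of all promoters. Cyp3a44 and Cga held ATTGAT, against 7.54%. Cyp3a44, Cga and Adra2c held AGGTCA, against 16.3%. TGTTTAC was held by Cyp3a44, GTTAAT by Cga and TTGCNNAA by Esr1.

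**Figure D5:**
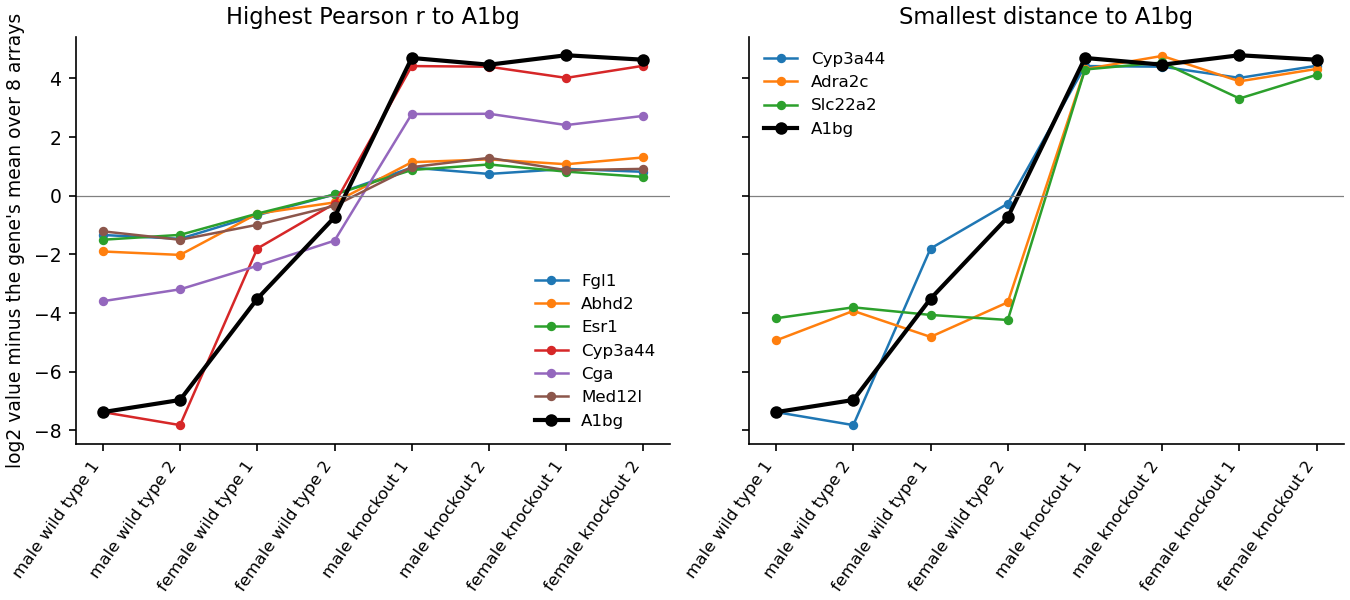
Values of A1bg (black) and of the genes most like it by Pearson r (left) and by distance (right) on the 8 arrays, as log2 minus each gene's mean over the arrays (vertical axis); lines only join the arrays of a gene. Cyp3a44 lies close to A1bg in height and, like it, rises from male wild type to female wild type to knockout. Fgl1, Abhd2 and Esr1 rise in that order over a smaller range. The order of the knockout sexes is not shared by all of them. Adra2c and Slc22a2 lie low in wild type of both sexes.

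Of 38 genes of growth hormone signalling and liver transcription factors, 8 rose and 4 fell in male knockout and 4 rose and 2 fell in female knockout, with medians of 0.15 and 0.04. Ghr, the growth hormone receptor, rose by 2.72 in males and by 3.11 in females (limma adjusted p = 0.000219 and 0.000257). Stat5b, the STAT5 form linked to sex differences in liver, differed by 0.21 and 0.17 (limma adjusted p = 0.450 and 0.555). Hnf4a, a central regulator of hepatocyte genes, differed by -0.05 and -0.35 (limma adjusted p = 0.913 and 0.389). Trim24, a coregulator that is higher in female liver, was lower in wild-type males (-1.41, limma adjusted p = 0.0226) and rose by 1.42 in male knockout (adjusted p = 0.00501).

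A1bg is one of many proteins that hepatocytes release into plasma. Of 53 other plasma glycoproteins and carriers, 6 rose and 5 fell in male knockout and 7 rose and 5 fell in female knockout, with medians of 0.17 and 0.18. Serpina6, the corticosteroid-binding globulin, rose by 4.33 in males and 3.16 in females (limma adjusted p = 0.000183 and 0.000438). It was also the 1 gene of this list that was lower in wild-type males (-1.06, adjusted p = 0.0410). Cp, the copper carrier ceruloplasmin, rose by 1.90 and 1.72, and Itih4, an inter-alpha-trypsin inhibitor chain, rose in both sexes, by 1.26 in males. Mug1, a proteinase inhibitor of the macroglobulin family, fell by 2.33 and 2.17, and C9, a pore-forming complement component, fell by 4.57 and 2.95. A1bg differed by 11.76 and 6.84 in the same pair of comparisons.

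Relatives and partners of the A1BG protein were measured in part. CRISP proteins are known to bind A1BG, and the related immunoglobulin-like receptors include the LILR family. Of 17 such genes 9 were tested. Crisp1, Crisp2, Crisp3, Gp6, Tarm1 and Ncr1 did not pass the filter on detection, and Crisp4 and Vstm1 were not matched. Igsf1 fell by 1.55 on the log2 scale in male knockout (limma adjusted p = 0.0112), and limma called 0 of the 9 in female knockout or between the wild-type sexes. At an unadjusted limma p under 0.05 the counts were 0 in female knockout and 3 between the wild-type sexes. Over all 26553 tested genes and transcripts they were 6641 and 4680.

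On chromosome 15, Lratd2, the nearest measured gene before A1bg in the reference order with 1 gene between, moved in the same directions. It read -1.93 and -1.59 in male wild type, -0.40 and -0.37 in female wild type, 0.07 and 0.31 in male knockout, and 0.50 and 0.82 in female knockout. It rose by 1.95 in male knockout and by 1.04 in female knockout (limma adjusted p = 0.00253 and 0.0280), and was lower in wild-type males (-1.38, adjusted p = 0.0352). The other measured neighbours were Gm19510 and Trib1 before A1bg and Myc, Pvt1 and Macroh2a3 after it. Of these, Pvt1, a long noncoding RNA, rose by 3.23 in female knockout (limma adjusted p = 0.0213) and differed by 1.70 in male knockout (adjusted p = 0.0881). Pvt1 was well above background on 1 of 2 female wild-type arrays, so its female difference rests partly on a dim signal. The remaining 4 neighbours were not called in either sex.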

How the data were processed

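Total RNA from whole liver was extracted with Trizol and labelled with Cy3, per the labels' protocols. The deposited intensity values are processed signals, from which Feature Extraction 11.5.1.1 had removed background and a spatial trend within each array, per the file headers. Version 9.1.3.1 is named by the submitters' processing notes. The authors' deposited value table holds log2 values, each equal to the log2 signal minus 1 constant per array (6.99 to 7.30, within 0.01 for 99.98% or more of probes). It was not centred per gene, and the choice of that constant is not explained by the sources used here.

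Log2 signals were scaled to each array's 75th percentile. Control spots and outlier spots were left out, and spots of a probe were averaged (56605 probes, 32994 of them named through RefSeq accessions). A probe had to be well above background on every array of some group to be kept, with the brightest for each gene. With limma 3.58.1 (R 4.3.3), a mean per group was fitted to the 8 arrays together (4 residual degrees of freedom) with Benjamini-Hochberg adjustment over 26553 genes and unnamed transcripts. The fit was tested on simulated data. The number of arrays limits the precision. Python 3.11.15 drew the plots.

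A1bg, the lists and the tests were chosen with earlier results of these data known. The genes named were A1bg, Bcl6, the 6 highest by correlation and the 4 nearest by distance to A1bg, 3 measured neighbours on each side, textbook female-biased genes, Stat5b, Hnf4a, relatives and partners, and up to 4 members per list with the smallest adjusted p in either of 2 comparisons (knockout against wild type in males, and the sexes in wild type). Other genes named (Cyp2g1, Cyp3a16, Nipal1, Sult1e1, Sult2a2, Sult2a6, Sult3a1, Sult3a2, Hsd3b6, Sdc1, Cd79a, Hba-a1 and Amy2a5) were chosen after their values were seen. The interaction for A1bg, planned as a test, is given as a description because it is made of the rises that chose the gene. Some genes that met the rule are not reported here. Alternatives covered normalization, background correction, detection filter, probe choice, dim values, arrays in the fit, variance prior, replicate block and each array left out. Normexp (offset 50) used the spots' median brightness, where the mean had been planned.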

Additional observations from a re-analysis of the deposited data

Results flagged for a closer look

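The interaction of sex and genotype passed for 8 of the 43 female-biased genes tested, against 0.2% of all tested genes (limma, adjusted over all of them). Cyp3a44, the nearest gene to A1bg by distance, had measured differences of 12.01 in males and 5.26 in females, which differ by 6.75 (adjusted p = 0.0382). With dim values raised to the lowest detected signal it was 5.14 (adjusted p = 0.0805), so this call did not hold under that setting. For Cux2, like Cyp3a44 not well above background in male wild type, the difference was 6.93, for Acot3 4.11 and for Cyp2b13 10.44, each with an adjusted p of 0.0102. Raising dim values left these 3 called, with adjusted p from 0.00337 to 0.0117. Cyp2b13 rose by 6.01 in males and fell by 4.43 in females.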

How the results depend on the processing

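A1bg kept its direction in the male minus female wild-type comparison, in both genotype comparisons and in the interaction under every alternative run. In wild type the difference between the sexes was also past the threshold with a mean trend in the variance prior (-5.05, limma adjusted p = 0.0227). Leaving out 1 array gave -6.44 to -3.66 in wild type, 3.53 to 6.31 for the interaction, 11.55 to 11.96 for knockout in males, 5.45 to 8.23 for knockout in females and -0.25 to -0.02 between the sexes in knockout. Normexp, which adds an offset to every spot, gave 6.63 for knockout in males and 0.87 for the interaction. For the sexes in wild type it gave -1.10 (limma adjusted p = 0.204). Raising dim values gave 9.83 for knockout in males and 2.99 for the interaction. Deviations of same-numbered samples correlated little over all genes (from -0.00155 to 0.102). This cannot show whether the samples were paired, since a pairing may affect only part of the genes. With the replicate block A1bg gave -5.05 (limma adjusted p = 0.0836) in wild type and 4.92 for the interaction. Interaction calls then numbered 25 instead of 53.

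Counts of genes called moved more. Knockout in males gave 2811, 1229 without the detection filter and 1082 to 2895 with 1 array left out. Knockout in females gave 1582, 2616 with normexp, 529 without the filter, 367 with the groups compared only, 2512 with the trend and 563 to 1698 with 1 array left out. The sexes in wild type gave 242, 603 with normexp, 92 without the filter, 43 with the groups compared only, 592 with the trend and 79 to 1050 with 1 array left out. The sexes in knockout gave 19, 9 with normexp, 10 with raised dim values, 11 with the groups compared only and 11 to 218 with 1 array left out. The interaction gave 53, 11 without the filter, 83 with the trend and 79 to 528 with 1 array left out. The cause was not tested. Female-biased genes called lower in wild-type males numbered 5 with the groups compared only, and those higher in female knockout 2 with that setting or without the filter; these counts were added after seeing the data. Arrays give no depth: the male wild-type level of A1bg is limited by the signal over background.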
